A study of Mus musculus with 3 samples.

Results

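H3K4me3-rich regions without H3K27me3 are stretches of the mouse genome that carried a high level of trimethylated lysine 4 of histone H3 and shared no base with a region rich in trimethylated lysine 27. They numbered 2473 of 15846 distinct H3K4me3-rich regions, or 15.6%. The other 13373, or 84.4%, shared at least 1 base with an H3K27me3-rich region. H3K27me3-rich regions were themselves extensive, with 1032 Mb of the 2558.5 Mb of known bases. Both kinds of region had been derived from histone ChIP-Seq of mouse embryonic fibroblasts in another study, so the regions were not chosen on the tags described here. In these regions NFI ChIP-Seq tags, input tags and the deposited list of in vivo NFI sites were counted.

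The comparison was of 3 libraries, 1 for each condition and without replicates. NFI ChIP of wild-type fibroblasts, NFI ChIP of NFI-C knock-out fibroblasts (an insertional mutation) and input DNA of wild-type fibroblasts, sequenced without antibody, all came from primary cells of the C57BL/6 strain at passage 6 to 7, taken from embryos at 14.5 days. The antibody, NFI (H300), targets the whole NFI protein group, so that NFI-A, NFI-B and NFI-X can still be precipitated from the knock-out cells. The title of the knock-out sample was followed, although its description line names wild-type cells. Each of the 4 NFI genes had a start site in an H3K4me3-rich region with H3K27me3 and none in the regions described, so the label could not be checked there. Library size was 3132004 (knock-out ChIP) to 4100449 (input) distinct tags, that is uniquely mapped reads with at most 1 counted per position and strand. With no replicate no test was made, every difference describes these libraries rather than the genotypes, and the 95% intervals given cover counting error only.

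Nuclear factor I proteins are transcription factors that bind DNA as dimers, with the highest affinity to a palindrome of a short half-site. H3K4me3 marks the promoters of active and poised genes, H3K27me3 is laid down by Polycomb complexes over repressed developmental genes, and promoters with both marks are called bivalent. H3K36me3 covers the bodies of transcribed genes. An H3K4me3 region free of H3K27me3 would therefore commonly be read as the promoter of an active gene.

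The sequences that carry the NFI motif at deposited sites inside the regions are shown first. The palindrome searched was TTGGCANNNTGCCAA, which reads the same on both strands, with 12 fixed positions and 3 free ones. Of 1589 deposited sites in the regions, 9 had a match with at most 1 mismatch within 150 bp, and 8 of them, none over an annotated exon, are printed in the order of fewest mismatches and then most wild-type tags, each named by its gene or the nearest one. Coordinates and letters are of the mm9 build, plus strand, and capitals mark the match.
Zfp120, chr2:149962009-149962103: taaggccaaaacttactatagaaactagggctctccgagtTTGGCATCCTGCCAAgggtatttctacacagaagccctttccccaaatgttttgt
Wdfy1, chr1:79694057-79694151: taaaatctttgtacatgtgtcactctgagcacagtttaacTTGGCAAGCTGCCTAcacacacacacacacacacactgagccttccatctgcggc
Baz2b, chr2:60009885-60009979: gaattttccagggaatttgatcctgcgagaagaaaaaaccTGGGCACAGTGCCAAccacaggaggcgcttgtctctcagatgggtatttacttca
2610008E11Rik, chr10:78569514-78569608: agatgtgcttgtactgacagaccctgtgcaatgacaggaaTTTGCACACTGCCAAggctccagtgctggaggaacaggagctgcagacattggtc
Itpr1, chr6:108376907-108377001: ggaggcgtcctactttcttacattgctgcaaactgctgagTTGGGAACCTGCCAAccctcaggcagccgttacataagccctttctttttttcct
Myo9b, chr8:73836603-73836697: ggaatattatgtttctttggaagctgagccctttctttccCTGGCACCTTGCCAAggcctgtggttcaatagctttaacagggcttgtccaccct
Efemp1, chr11:28712777-28712871: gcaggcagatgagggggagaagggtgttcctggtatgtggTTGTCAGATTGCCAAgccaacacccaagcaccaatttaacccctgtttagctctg
Mapkbp1, chr2:119797695-119797789: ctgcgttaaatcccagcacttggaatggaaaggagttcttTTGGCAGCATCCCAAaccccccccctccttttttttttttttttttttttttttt
Only the sequence in an intron of Zfp120, a zinc finger gene, matched without mismatch. The others had 1 substitution each, counted from 1 at the first base of the palindrome. It was A14T for the match near Wdfy1, T2G in Baz2b, G3T near 2610008E11Rik, C5G in Itpr1, T1C in Myo9b, G4T near Efemp1 and G11C near Mapkbp1. All but Wdfy1 and Mapkbp1 thus kept the right half-site whole.

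Most sites lacked such a palindrome. Where the input had fewer than 5 tags, the 5 sites richest in wild-type tags were those near Wdfy1, in Zfpm2 and St3gal3, and near Gdap2 and Gm7536. That near Wdfy1 is printed above, and Gm7536 had a match with at most 2 mismatches at 124 bp. The other 3 had no such match within 150 bp, and their central 120 bp are shown for comparison, with half-sites TTGGC or GCCAA in capitals.
Zfpm2, chr15:40789941-40790060: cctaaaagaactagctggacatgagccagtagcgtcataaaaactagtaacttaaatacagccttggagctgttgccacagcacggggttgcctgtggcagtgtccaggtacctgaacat
St3gal3, chr4:117756284-117756403: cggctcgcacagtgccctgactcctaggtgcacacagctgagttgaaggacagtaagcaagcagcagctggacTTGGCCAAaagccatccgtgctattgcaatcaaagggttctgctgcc
Gdap2, chr3:100031508-100031627: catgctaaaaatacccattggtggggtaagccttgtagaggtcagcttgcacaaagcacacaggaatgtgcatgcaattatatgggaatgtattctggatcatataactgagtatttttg
The sequence from an intron of St3gal3, a sialyltransferase, held an overlapping pair of half-sites, and those from an intron of Zfpm2, a cofactor of GATA factors, and near Gdap2 held none. Over all sites of the regions, 22.8% (20.8 to 24.99) had a half-site within their central 120 bp, against 14.9% (13.1 to 16.7) of windows of the same width 2000 bp away. For sites in regions with H3K27me3 the shares were 22.5% and 18.3%.

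The regions were broad and mostly lay along transcribed genes. They covered 43.2 Mb, or 1.69% of the known bases of the genome, with a median length of 10588 bp and 90% of them between 1807 and 55093 bp. H3K4me3-rich regions with H3K27me3 were longer (median 18157 bp). An annotated transcription start site (TSS) of a protein-coding gene lay in 1098 of the regions, or 44.4%, against 67.6% of the regions with H3K27me3. Another 751 (30.4%) lay in the body of a protein-coding gene without a TSS. The remaining 624 (25.2%) lay outside protein-coding genes, which is called intergenic here, and gene bodies are those of protein-coding genes throughout. Gene bodies made up 75.5% of their bases, and 71.1% of their bases were also H3K36me3-rich, against 52.6% in the regions with H3K27me3, 1.34% in H3K27me3-rich regions without H3K4me3 and 19.4% of the genome. Their G+C content was 42.3%, close to the genome's 41.8% and below the 44.7% of the regions with H3K27me3. TSSs were about as dense in both kinds of H3K4me3-rich region (92.4 and 97.6 per Mb).

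Genes of most lists had their TSS in regions with H3K27me3, and few in the regions without it, as was so of all genes. Of 22367 protein-coding genes, 1325 (5.92%) had a TSS in them, and 13454 (60.2%) had one in an H3K4me3-rich region with H3K27me3. Of 25 fibroblast genes only Col5a2, a chain of fibrillar collagen V, had a TSS in the regions, and all 25 had one in a region with H3K27me3. None of 17 glycolysis genes, 28 genes of the actin cytoskeleton and 20 immediate early genes had a TSS in the regions, although all of them had one in a region with H3K27me3. Of 76 ribosomal protein genes 3 did (Rplp0, Rpl11 and Rps23), and of 39 proteasome genes 5 did (Psma4, Psmb5, Psmd1, Psmd6 and Psmd9), which at 12.8% was the highest share of the lists. The lists are short, no list was tested, and none of these counts is read as a departure from the share of all genes. None of 41 Polycomb-regulated developmental genes had a TSS there, and 37 had one in a region with H3K27me3. None of 9 neuronal and glial, 6 muscle, 9 blood, 6 endothelial, 7 epithelial and 4 germ cell markers had a TSS in the regions without H3K27me3. In the same order 5, 1, 3, 2, 5 and 2 of them had one in an H3K4me3-rich region with H3K27me3. Since H3K27me3-rich regions wholly covered 7318 of the H3K4me3-rich regions, the rule compared broad regions, not the marks at a promoter itself.

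Few regions lay within 500 bp of the limit of the rule, but the number of members depended on the overlap allowed. The regions lay at a median of 28110 bp from the nearest H3K27me3-rich region, with 12 of them within 500 bp. The excluded regions shared a median of 12354 bp with H3K27me3-rich regions, and 23 of them under 500 bp, while 313 shared under 10% of their length. Were only an overlap of at least 50% to remove a region, 5138 would be left. In the 12 regions just inside, tag density was 1.32-fold the genome mean in the wild-type ChIP and 1.30-fold in the input, and in the 23 just outside 2.47-fold and 2.40-fold.

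All 3 libraries were denser in the regions than in the genome, and the wild-type ChIP was not denser than the input. The regions held 79420 wild-type ChIP tags, 74526 of the knock-out and 100429 of the input. Per kb these were 1.84, 1.72 and 2.32 tags, or 1.40-fold, 1.41-fold and 1.45-fold the genome mean. Scaled by library totals, wild-type ChIP over input was 0.968 (0.959 to 0.977), knock-out ChIP over input 0.972 (0.962 to 0.981), and knock-out over wild-type ChIP 1.00 (0.994 to 1.01). The shares of tags that both ChIP libraries had in the regions thus differed by less than the counting error, although with every uniquely mapped tag counted knock-out over wild-type ChIP was 1.02 (1.02 to 1.03). The direction against the input depended on the setting. Compared with the tags expected from the G+C content of the same DNA, wild-type ChIP over input became 1.05 (1.04 to 1.06), and with every uniquely mapped tag counted it was 1.01.

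The G+C expectation also left no contrast with the H3K4me3-rich regions that had H3K27me3. There wild-type ChIP over input was 0.837, so that the regions without H3K27me3 stood 1.16 (1.15 to 1.17) times higher. With the G+C expectation both kinds were at 1.05, with a ratio between them of 1.00 (0.991 to 1.01). That expectation came from the whole genome, these regions included, so in GC-rich DNA it partly holds their own density. Of 2 kb tiles with at least 60% G+C, 88 lay in regions without H3K27me3, 2266 in those with it and 291 in neither mark. In the same order their input was 10.6-fold, 10.4-fold and 1.45-fold the genome mean. Among regions with a TSS the ratio between both kinds was 1.04 (1.02 to 1.05) and among regions without one 1.11 (1.10 to 1.13). H3K27me3-rich regions without H3K4me3 had a lower density in every library, at 1.06-fold the genome mean in the wild-type ChIP and 0.987-fold in the input. Their wild-type ChIP over input was 1.08 (1.07 to 1.08), and 1.01 (1.00 to 1.01) with the G+C expectation.

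**Figure D1:**
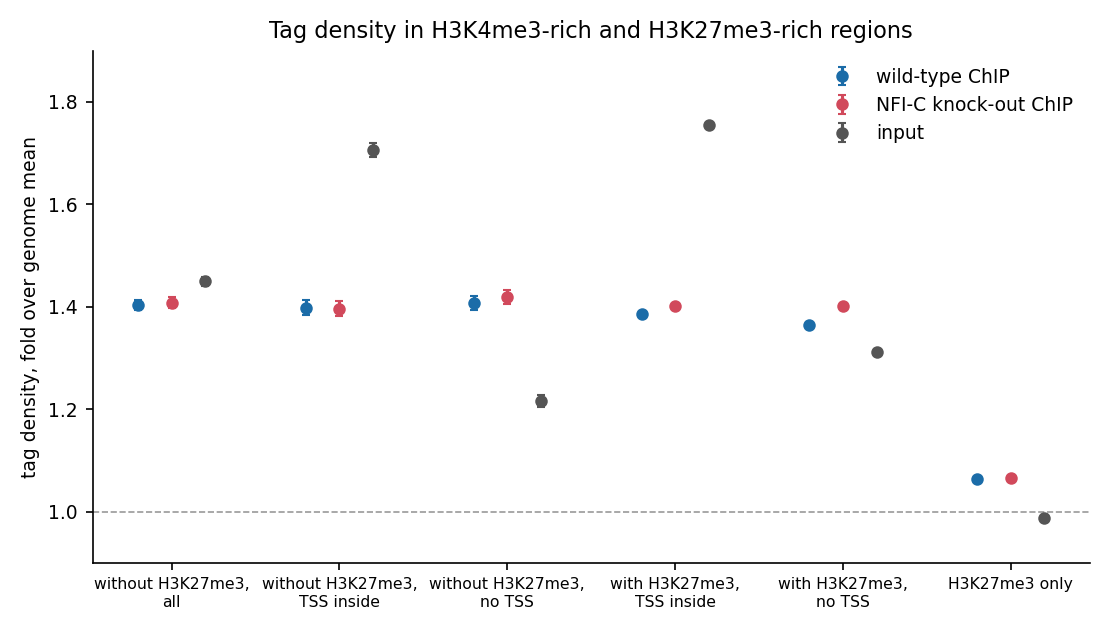
Tag density as fold over the genome mean (y axis, starting at 0.9) in 3 libraries for H3K4me3-rich regions without H3K27me3 (all, with a TSS inside, without a TSS), those with H3K27me3, and H3K27me3-rich regions without H3K4me3. Points are 1 library each and bars 95% counting intervals. Both ChIP libraries stay near 1.40 in regions without H3K27me3, whereas the input is at 1.71 where a TSS lies inside and at 1.22 where none does.

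The presence of a TSS split the input and not the ChIP libraries. In the 1098 regions with a TSS the input was 1.71-fold, the wild-type ChIP 1.40-fold and the knock-out ChIP 1.40-fold the genome mean. In the 1375 regions without a TSS these were 1.22-fold, 1.41-fold and 1.42-fold. Wild-type ChIP over input was therefore 0.820 (0.809 to 0.830) with a TSS and 1.16 (1.14 to 1.17) without. The base composition moved with this, as G+C was 43.6% with a TSS and 41.2% without. Between regions of under 40% and of at least 55% G+C, wild-type ChIP over input went from 1.22 (1.20 to 1.24) to 0.202 (0.169 to 0.240). With the G+C expectation wild-type ChIP over input was 1.02 (1.00 to 1.03) with a TSS and 1.09 (1.07 to 1.10) without. The split by TSS was not particular to these regions. Where H3K27me3 was present, the input was 1.76-fold with a TSS and 1.31-fold without, and the wild-type ChIP 1.39-fold and 1.36-fold.

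Within the regions the input rose steeply at the TSS itself. Up to 0.5 kb from a TSS the input was 6.15-fold, the wild-type ChIP 1.77-fold and the knock-out ChIP 1.93-fold the genome mean. Wild-type ChIP over input was 0.288 (0.279 to 0.298) there and knock-out over wild-type ChIP 1.09 (1.05 to 1.14). From 0.5 to 1 kb the input was already down to 1.70-fold, and over 50 kb from a TSS wild-type ChIP over input reached 1.18 (1.16 to 1.20). Deposited sites were densest at the TSS too, with 86.0 per Mb (73.2 to 100.4) up to 0.5 kb and 57.2 (45.5 to 70.9) from 0.5 to 1 kb. Of the 243 sites within 1 kb, 43 (17.7%) had at least 5 input tags in 300 bp, against 8 (0.594%) of 1346 farther away. Wild-type ChIP over input was 1.59 (1.43 to 1.76) at the former and 5.46 (5.10 to 5.85) at the latter. Site density was lowest from 2 to 5 kb, with 20.6 per Mb (16.6 to 25.2), and was 38.5 (35.5 to 41.8) over 50 kb away. The regions with H3K27me3 had a lower density up to 0.5 kb, with 72.8 per Mb (69.3 to 76.5), a higher one from 1 to 2 kb, with 35.8 (33.6 to 38.0) against 25.9 (19.8 to 33.4), and from 2 to 5 kb, with 29.5 (28.2 to 30.9), and 34.8 (33.7 to 35.9) over 50 kb away. The intervals of both kinds overlapped up to 1 kb and beyond 5 kb and were apart from 1 to 5 kb. The input of regions with H3K27me3 rose at the TSS as well. Up to 0.5 kb it was 6.94-fold the genome mean there, with wild-type ChIP over input at 0.243 (0.240 to 0.245).

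**Figure D2:**
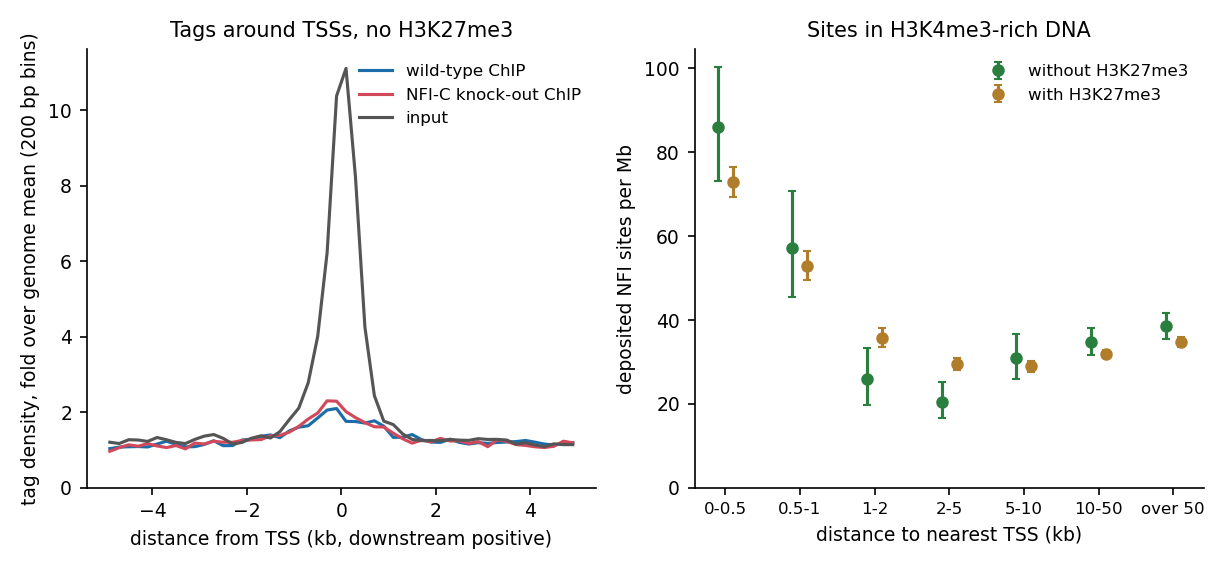
Left, tag density of 3 libraries (fold over the genome mean, bins of 200 bp) against the distance from the TSSs that lie in regions without H3K27me3. Right, deposited NFI sites per Mb with 95% counting intervals against the distance to the nearest TSS in both kinds of H3K4me3-rich region, where those without H3K27me3 fall from 86.0 up to 0.5 kb to 20.6 at 2 to 5 kb.

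The density of deposited NFI sites was close to that in the other H3K4me3-rich regions, and whether it stood above it depended on which sites were counted. The regions held 1589 of 39807 sites, or 3.99%, which is 36.8 sites per Mb (35.0 to 38.6). With H3K27me3 the density was 35.1 per Mb, and the ratio was 1.05 (0.995 to 1.10). H3K27me3-rich regions without H3K4me3 held 15.8 sites per Mb and the genome 15.6. The H3K4me3-rich regions without H3K27me3 had 2.33 (2.19 to 2.48) times the density of the former. Counting only sites where the wild-type ChIP had 5 tags or more, the regions held 5.53 per Mb against 4.65 with H3K27me3, a ratio of 1.19 (1.03 to 1.36). The ratio was 1.06 (1.01 to 1.12) for sites with fewer than 5 input tags, 1.11 (1.01 to 1.21) for sites called again from the tags and 1.05 (0.983 to 1.12) when those tags were shifted by 75 bp. The sites were called on the wild-type library, and per wild-type tag in the regions the density was 1.77 (1.66 to 1.88) times that of H3K27me3-rich regions without H3K4me3 and 1.03 (0.979 to 1.09) times that of H3K4me3-rich regions with H3K27me3.

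A site lay in 991 of the 2473 regions, or 40.1%, where 55.2% of all regions rich in 1 of the 3 marks and 3.05% of 2 kb tiles of the genome held one. Of the regions, 652 held 1 site, 209 held 2, 67 held 3 and 63 held 4 to 9. The share rose with length. It was 16.3% (10.7 to 23.3) for regions under 2 kb, 41.7% (37.8 to 45.7) from 10 to 20 kb and 85.8% (79.5 to 90.8) for the 162 regions of at least 50 kb. The intervals of both kinds of H3K4me3-rich region overlapped at each length. Per Mb the shortest regions had the highest density, with 126.5 sites (81.9 to 186.8) in regions under 2 kb, 42.5 (36.8 to 48.95) from 5 to 10 kb, 32.6 (29.9 to 35.6) from 20 to 50 kb and 34.5 (31.3 to 38.0) from 50 kb. The 147 regions under 2 kb held 25 sites in all, where the wild-type ChIP was 2.18-fold, the knock-out ChIP 2.11-fold and the input 3.60-fold the genome mean. With length, wild-type ChIP over input rose from 0.607 (0.547 to 0.672) under 2 kb over 0.829 (0.807 to 0.852) from 5 to 10 kb to 1.05 (1.04 to 1.07) from 50 kb. Knock-out over wild-type ChIP lay between 0.967 (0.857 to 1.09) and 1.06 (1.03 to 1.09) at all lengths. The G+C content was 48.4% under 2 kb and 42.2% from 50 kb, and its part was not tested.

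**Figure D3:**
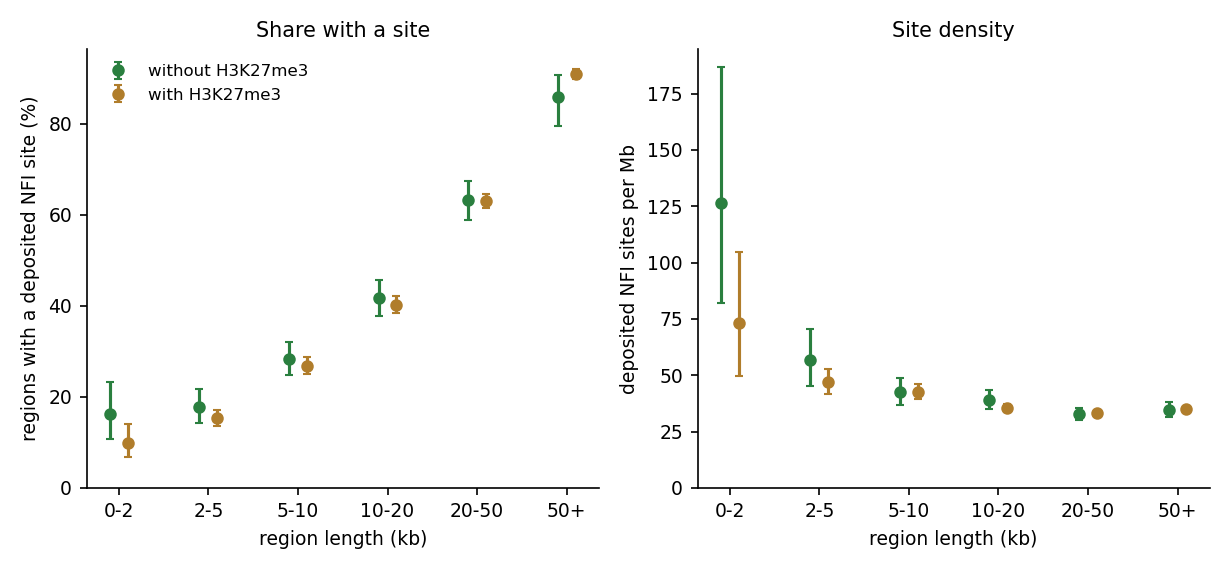
Share of H3K4me3-rich regions that hold a deposited NFI site (left, percent) and sites per Mb (right) by region length in kb, without and with H3K27me3, with 95% counting intervals. The share rises from 16.3% under 2 kb to 85.8% from 50 kb in regions without H3K27me3, while the density is highest under 2 kb at 126.5 per Mb and lowest from 20 to 50 kb at 32.6.

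The regions with the most sites were long, and 4 of the 5 named lay in or over a gene. The region in Zfpm2 (chr15:40592845-40699631, 106787 bp) held 9 sites. The wild-type ChIP had 204 tags there, the knock-out 157 and the input 182. The region in D18Ertd653e held 9 sites too, with 245, 241 and 225 tags in the same order. Ctif, which codes for a translation factor of the nuclear cap-binding complex, held 8 sites in a region with 196, 224 and 228 tags. The region of Sgms1, a sphingomyelin synthase, spanned its TSSs (chr19:32284073-32426786) and held 8 sites, with 327, 243 and 303 tags. An intergenic region 115801 bp from Rnd3 held 7 sites with 192, 163 and 167 tags, and was 1 of 5 regions with that number. Wild-type ChIP over input was between 1.05 (Ctif, 0.865 to 1.28) and 1.41 (near Rnd3, 1.14 to 1.74) in these 5 regions. Knock-out over wild-type ChIP was lowest in Sgms1 at 0.795 (0.670 to 0.941) and highest in Ctif at 1.22 (1.00 to 1.49).

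The longest region held fewer sites than these. Lying over a TSS of Rbms3 (chr9:116643619-116887927), an RNA-binding protein, it measured 244309 bp and held 4 sites with 404 tags in wild-type, 362 in knock-out and 471 in input. Regions of Nek7, a mitotic kinase (183871 bp), Pdgfc, a ligand of the platelet-derived growth factor family (147572 bp), Ptk2, the focal adhesion kinase (146134 bp), and Macf1, a linker of microtubules and actin (145039 bp), held 7, 5, 2 and 6 sites. Wild-type ChIP over input in these 5 lay between 0.969 (Nek7, 0.828 to 1.13) and 1.18 (Pdgfc, 0.994 to 1.39), with 1 inside every interval.

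Single regions varied around a median wild-type ChIP over input of 1.01. Of 2065 regions with at least 20 tags of both libraries, 317 (15.4%) were at least 1.5-fold higher in the ChIP. Of all regions rich in 1 of the 3 marks 6.23% were. The share was 13.0% in H3K27me3-rich regions without H3K4me3 and 5.76% in H3K4me3-rich regions with H3K27me3. At least 1.5-fold lower were 481 of the 2065 (23.3%), against 24.1% of all, and 7.00% and 34.8% of the other kinds in the same order. Regions without a TSS made up 261 of the 317 higher ones, which is 23.4% of 1114 such regions, and only 88 (7.90%) were lower. Of 951 regions with a TSS 56 (5.89%) were higher and 393 (41.3%) lower. Their medians were 1.18 without and 0.765 with a TSS. Against the input the knock-out ChIP was at least 1.5-fold higher in 335 of 2058 regions (16.3%) and lower in 467 (22.7%), where 6.52% and 23.8% of all rich regions were. For knock-out over wild-type ChIP the median was 1.01, with 271 of 1886 regions (14.4%) at least 1.5-fold higher and 217 (11.5%) lower, against 8.05% and 7.59% of all rich regions. With at least 50 tags of both libraries, 130 of 1196 regions had wild-type ChIP at least 1.5 times input. With every uniquely mapped tag counted, 541 of 2313 did. No share over all rich regions was computed at these settings or by presence of a TSS, so these counts have no background beside them. Counting error in short regions can add to both tails, and beyond these settings its part was not tested.

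**Figure D4:**
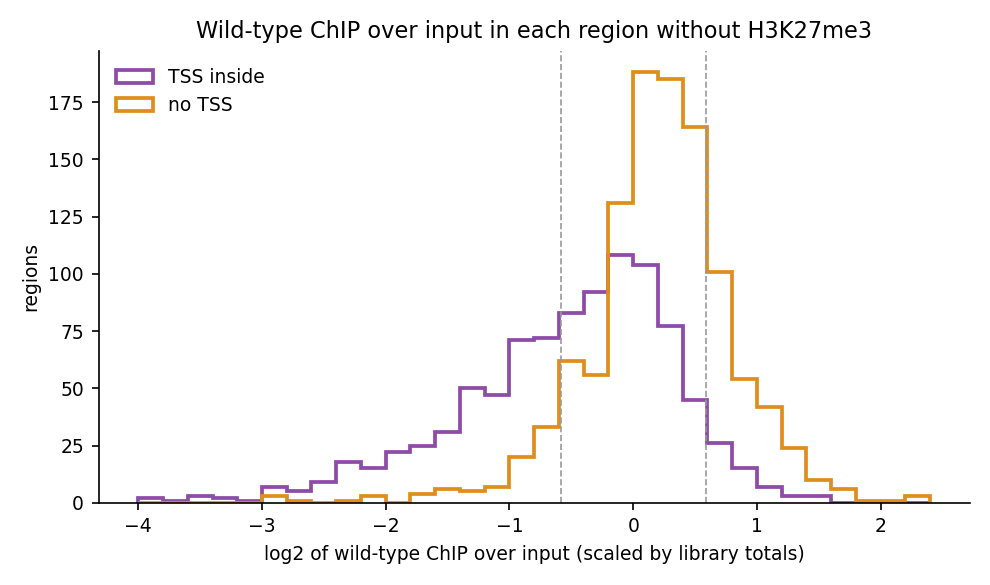
Histogram of the log2 ratio of wild-type ChIP to input (scaled by library totals, bins of 0.2) over regions without H3K27me3 that had at least 20 tags, split by whether a TSS lies inside. Dashed lines mark 1.5-fold in both directions, and 5 regions without a wild-type tag and 5 beyond the axis are not drawn. The curve of regions with a TSS reaches far to the left, with 393 of them beyond the left line.

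The highest ratios lay in DNA of low to average G+C content and the lowest in GC-rich DNA. Among 1577 regions with at least 20 input tags, the region over a TSS of Setd3, the actin histidine methyltransferase (chr12:109347163-109373635), had 57 tags in wild-type, 27 in knock-out and 26 in input, a wild-type over input of 2.68 (1.66 to 4.45). The region of Dennd1a, an exchange factor for Rab GTPases, had 53, 24 and 26 tags, a ratio of 2.50 (1.53 to 4.16). Regions in Gm16039, 207108 bp from Cyp7b1, an oxysterol hydroxylase, and 220206 bp from Gulp1, an engulfment adaptor, followed with 2.39, 2.37 and 2.29. Knock-out over wild-type ChIP lay between 0.484 (Dennd1a, 0.286 to 0.798) and 0.871 (near Gulp1, 0.541 to 1.39) in the 5, which the choice on wild-type tags lowers. These 5 had 35.9% to 43.0% G+C. They were picked as the extremes of 1577, so their ratios are a description of the range.

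No wild-type tag was found in 5 regions with 21 to 29 input tags. They were those of Gng10, a G protein gamma subunit, and Otud5, a deubiquitinase, each with 29 input tags, and intergenic ones near Gm9982 (26), Mrgprb5 (21) and Olfr726 (21). With counting error in both libraries, the upper limit of wild-type ChIP over input was 0.166 in Gng10 and Otud5, 0.187 near Gm9982 and 0.235 near Mrgprb5 and Olfr726. The knock-out ChIP had 2 tags in Gng10 and 11 in Otud5. G+C was 50.6% to 59.4% in these regions. The 8 proteasome and ribosomal protein regions ranged more widely. Wild-type over input was 0.265 (0.106 to 0.577) at Psma4, 0.466 (0.279 to 0.757) at Rpl11 and 0.658 (0.457 to 0.938) at Psmb5. The intervals of the other 5 held 1, from 0.657 (0.373 to 1.13) at Rps23 and 0.659 (0.424 to 1.01) at Rplp0 over 0.878 at Psmd6 and 0.879 at Psmd1 to 1.22 (0.430 to 3.48) at Psmd9. At Col5a2 the region (chr1:45429349-45453511) had 54 tags in wild-type, 38 in knock-out and 39 in input, a ratio of 1.69 (1.10 to 2.63), and held 2 sites.

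The sites themselves were of few tags. In 300 bp around the 1589 sites there were 3.37 wild-type tags on average, 1.00 knock-out tags and 1.04 input tags. This was 8.57-fold, 2.73-fold and 2.16-fold the genome mean. Although the sites had been called at 5 tags or more, 239 (15.04%) reached 5 wild-type tags here, and 322 (20.3%) did with tags shifted by 75 bp. Over all deposited sites the shares were 11.2% and 16.9%. The sites were called on the wild-type library, so its excess, and knock-out over wild-type of 0.319 (0.301 to 0.337), were at least in part fixed by that choice. Knock-out ChIP over input, which the choice did not use, was 1.26 (1.18 to 1.36) at these sites. It was 1.02 (1.00 to 1.04) at sites in regions with H3K27me3 and 1.40 (1.31 to 1.498) in H3K27me3-rich regions without H3K4me3. Over the whole regions of each kind it was 0.972, 0.850 and 1.08 in the same order, the same ranking as at the sites. No knock-out tag was found at 792 sites, or 49.8%, and no input tag at 755, or 47.5%. In regions with H3K27me3 these shares were 49.8% and 45.7%, and over all 39807 deposited sites 58.3% and 53.6%. At least 5 input tags were found at 51 sites (3.21%), against 4.65% of sites in regions with H3K27me3 and 2.03% of all deposited sites.

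Input density at the sites differed with the distance to a TSS. Within 1 kb of a TSS lay 243 sites, or 15.3%, against 16.4% of sites in regions with H3K27me3 and 8.24% of all deposited sites. At the 243 sites the input was 5.43-fold, the knock-out ChIP 3.23-fold and the wild-type ChIP 8.60-fold the genome mean. Knock-out ChIP over input was 0.595 (0.516 to 0.685). At the 1346 sites farther away the libraries were at 1.57-fold, 2.64-fold and 8.57-fold in the same order. Knock-out ChIP over input was 1.68 (1.55 to 1.83) there. This contrast was not particular to the sites. In all DNA of the regions, input was 6.15-fold and knock-out ChIP 1.93-fold up to 0.5 kb from a TSS. Over 50 kb away they were 1.18-fold and 1.39-fold. Among the sites with the most wild-type tags and fewer than 5 input tags, that near Wdfy1 (chr1:79694036-79694051) had 13 tags in wild-type, 6 in knock-out and 1 in input. Zfpm2 had 9, 4 and 0, and St3gal3 had 9, 16 and 2. Near Gdap2 there were 8, 2 and 0, and near Gm7536 8, 7 and 1. The sites in Atg5, an autophagy gene, near Gm5444 and in Stag2, a cohesin subunit, each had 7 wild-type and no knock-out tags, with 1, 2 and 3 input tags. These 8 were picked for many wild-type and few input tags, so that their values describe the top of the range.

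A motif match went with more tags in the knock-out library. Up to 2 mismatches being allowed, 50 sites had a match within 150 bp, which is 3.15% (2.34 to 4.13) of them. These had 4.24 wild-type tags on average and the others 3.34. Among windows 2000 bp away 1.48% (1.09 to 1.962) had a match. Of all deposited sites 3.12% had one, and of sites in regions with H3K27me3 3.64%, so the share was near that of all sites. With at most 1 mismatch, 9 sites of the regions had a match (0.566%, against 0.538% of all deposited sites), and 4 of 3178 windows. At the 50 sites knock-out ChIP was 6.10-fold the genome mean and knock-out ChIP over input 3.05 (2.16 to 4.38). At the 1539 other sites knock-out ChIP over input was 1.21 (1.13 to 1.30). The 8 sites whose sequences are printed had 3 to 13 tags in wild-type, 1 to 6 in knock-out and 0 to 4 in input. In the order printed, the wild-type tags were 5, 13, 6, 5, 4, 4, 4 and 3. The knock-out tags were 2, 6, 5, 2, 2, 1, 3 and 1, and the input tags 3, 1, 0, 1, 2, 4, 3 and 1.

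Matches were also counted without regard to the site list, which avoids the choice of sites on wild-type tags. The regions held 136 matches with at most 1 mismatch, or 3.15 per Mb. In 300 bp around them the wild-type ChIP was 3.16-fold (2.70 to 3.68), the knock-out ChIP 3.38-fold (2.89 to 3.93) and the input 1.58-fold (1.29 to 1.91) the genome mean. Wild-type ChIP over input was 2.01 (1.56 to 2.59) and knock-out ChIP over input 2.15 (1.67 to 2.77), whereas 500 to 2000 bp away they were 0.975 and 1.05. Knock-out over wild-type ChIP was 1.07 (0.859 to 1.33), so that no difference between the ChIP libraries was detectable at this depth. Matches in regions with H3K27me3 gave a wild-type over input of 2.19 (2.01 to 2.40) and those outside both kinds of region 1.79 (1.66 to 1.93). Wild-type tags were absent from 56 of the 136 matches, the most at 1 match were 14, and only 9 (6.62%) lay at a deposited site. The 4 matches without mismatch had 5 tags in wild-type, 12 in knock-out and 8 in input.

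**Figure D5:**
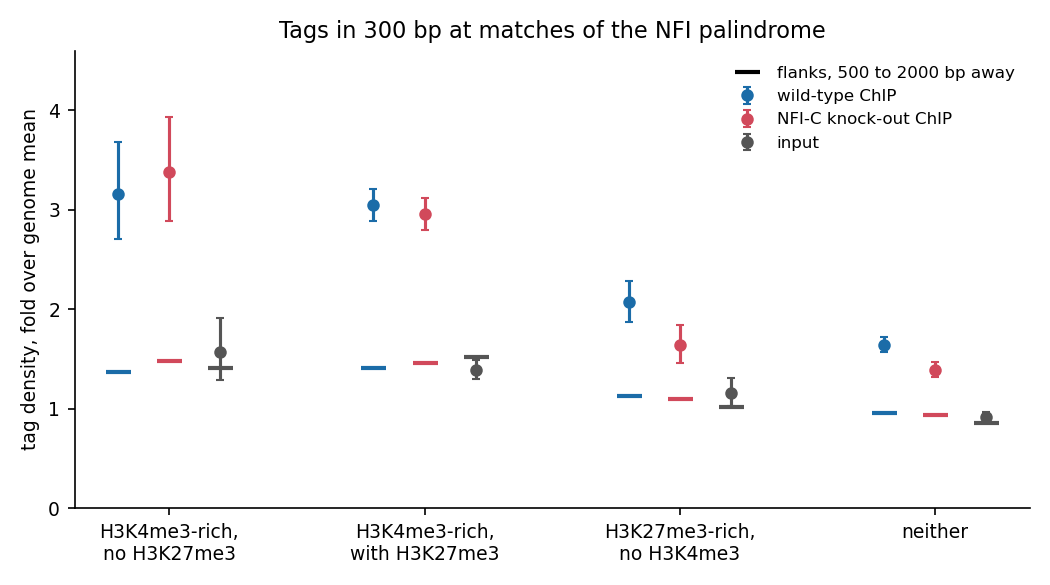
Tag density (fold over the genome mean) in 300 bp at matches of the palindrome with at most 1 mismatch in 4 parts of the genome, 1 point per library with 95% counting intervals. Short bars give the density 500 to 2000 bp away. In regions without H3K27me3 the wild-type ChIP (3.16) and the knock-out ChIP (3.38) both stand above the input (1.58).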

How the data were processed

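ChIP-Seq tags of 3 libraries, with 1 library per group, were counted in regions. Alignment was by ELAND to mm9, and the file of each library lists its reads with place, strand and mismatches. These are counts of reads, which the authors deposited as they were, with no normalization. A list of in vivo sites came with them, as did files that pair boundaries of histone methylation regions with the closest NFI site, from which the distinct rich regions of H3K4me3, H3K27me3 and H3K36me3 were read. The deposited notes say that the authors drew the rich regions with the partitioning tool ChIP-PART, for which no settings are given in the sources used here, and took the poor regions as what remained of the genome. They called sites with ChIP-Peak at a threshold of 5 tags in 300 bp, after a shift of each tag by 75 bp and removal of tags in repeats. Tags were not shifted or filtered for repeats here unless stated. Of 15846 H3K4me3-rich regions, 15842 were bounded on both sides by regions listed as poor in the companion file. The columns for lamina regions were not used.

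Uniquely mapped tags on 21 chromosomes were counted by their 5′ end, at most 1 per position and strand. Duplicates left 3350071 of 9771419 unique reads in the wild-type ChIP, 3132004 of 10809682 in the knock-out ChIP and 4100449 of 5411989 in the input. Densities were divided by the mean over 2558509480 known bases, and ratios by library totals. Intervals are exact Poisson for counts and exact binomial for shares and ratios, and for ratios between kinds of region a normal approximation of the log ratio. TSSs are those of all transcripts of 22367 protein-coding genes in GENCODE vM1 on the same build, and sequences were read from that build. Sites were placed by their midpoint. The G+C expectation used tags per base in 500 bp tiles of the whole genome, the regions included, by bins of 2% G+C.

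Regions named were the 5 with most sites, the 5 longest, the 5 highest and 5 lowest in wild-type ChIP over input among those with at least 20 input tags, the 8 sites with most wild-type tags and fewer than 5 input tags, the 8 with the best motif match outside exons, and members of gene lists. The members and lists were chosen with earlier results of these data known. The functions were tested on simulated data. Python 3.11.15, NumPy 2.4.6, SciPy 1.17.1 and matplotlib 3.10.9 were used. Alternatives are given in the closing section.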

Additional observations from a re-analysis of the deposited data

How the results depend on the processing

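Of 37 alternatives 19 stayed within the counting interval or, for the count of regions, within 1.5 times, 15 moved and 3 crossed 1. No paired analysis was possible because each group had 1 library.

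Wild-type ChIP over input in the regions (0.968) crossed 1 when every uniquely mapped tag was counted (1.01). It also crossed 1 with the tags expected from G+C content (1.05) and in regions without a TSS within 1 kb (1.16). It moved to 0.820 with a TSS inside and to 0.885 when a region was removed only if H3K27me3 covered at least 50% of it. The wild-type reads fell into 3 groups by the start of their names, and with 1 of these groups alone it moved to 0.980. Knock-out over wild-type ChIP (1.00) moved to 1.02 (1.02 to 1.03) with every tag. Sites per Mb (36.8) moved to 5.53 for sites of 5 or more wild-type tags, to 13.5 for sites called again from the tags, to 22.6 when those tags were shifted by 75 bp (chosen after seeing the data) and to 34.5 in regions with a TSS. At motif matches wild-type ChIP over input (2.01) moved to 1.45 with at most 2 mismatches. The 317 of 2065 regions with wild-type ChIP at least 1.5 times input became 100 of 2065 at 2-fold. With at least 50 tags they became 130 of 1196, and with every tag 541 of 2313. The shares over all rich regions were not computed at these settings. The ratio of wild-type ChIP over input between regions without and with H3K27me3 (1.16) moved to 1.00 with the G+C expectation, to 1.04 with a TSS and to 1.11 without, all chosen after seeing the data, as was leaving out the 5 motif matches with the most tags, which gave 1.802 (1.37 to 2.38). The cause of these changes was not tested beyond what each alternative leaves out or weights.

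With 1 library per group neither the spread between cultures nor an effect of the genotype can be measured. Sites with about 3 wild-type tags cannot be ranked singly.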

Other observations

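The regions were unevenly spread over the chromosomes. They made up 8.35% of the H3K4me3-rich regions of chromosome 19 and 25.6% of those of chromosome 16. Chromosome X had 57 of them, or 0.352 per Mb, and chromosome 16 had 1.49 per Mb.

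Of the regions without a TSS, 757 shared no base with an H3K36me3-rich region. They had a G+C content of 39.5%, a wild-type ChIP over input of 1.21 (1.19 to 1.24) and 42.1 sites per Mb (38.0 to 46.5). The 915 regions with a TSS and H3K36me3 had 34.3 sites per Mb (31.7 to 37.0) at a wild-type ChIP over input of 0.821 (0.810 to 0.832). The 618 with H3K36me3 and no TSS had 36.7 sites per Mb (33.6 to 40.1) at a ratio of 1.12. The 183 with a TSS and no H3K36me3 had 37.6 (27.1 to 50.8) at 0.801. The site intervals of these last groups overlapped those of the others.

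Knock-out over wild-type ChIP had a median of 0.932 in regions with a deposited site and of 1.12 in regions without one, among regions with at least 20 tags. Since the sites were called on the wild-type tags, part of this contrast is fixed by that choice.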
